A study of Mus musculus with 22 samples.

Results

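The 4 h response to a gamma-secretase inhibitor (GSI) was measured in cells sorted from mouse fetal liver with a stem cell gate. It was read from all arrays labelled as 4 h of culture, 7 with GSI and 7 with the solvent DMSO, which are 14 of the 22 arrays of the series; the other 8 arrays are of 10 h. Livers came from wild-type C57Bl/6J embryos at day E14.5, with no transgene or deletion named in the labels. Whole fetal liver cells were cultured for 4 h on OP9-DL1 stroma, feeder cells made to carry the Notch ligand Dll1, with 1 µM GSI or with DMSO. The stroma and its ligand were present in both groups, and no culture without ligand was analysed here. Cells were sorted by flow cytometry only after the culture, as SLAM LSK cells, a gate for haematopoietic stem cells that uses absent lineage markers, Sca-1, Kit and SLAM family proteins. Arrays were taken as 7 pairs, since the series' design says that each biological replicate had a DMSO and a GSI sample. Whether the 7 pairs came from separate litters is not stated, and the p-values measure the spread between these pairs. Values are log2 expression levels of 22180 genes, and a change is GSI minus DMSO on that scale.

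Notch receptors are cut inside the membrane by gamma-secretase once a ligand has bound. The fragment that is set free enters the nucleus and joins the DNA-binding protein Rbpj and a Maml coactivator to switch on targets such as Hes1, a repressor of transcription, Nrarp and Dtx1. Inhibitors of gamma-secretase stop this step for all Notch receptors and for the other proteins that the enzyme cuts. In the fetal liver, Notch signals are known from stem cells, from the endothelium of the blood vessels and from early steps towards T cells.

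The cells of different pairs were not alike. Kit, the receptor that the sort selects for, lay between 9.74 and 10.27 on all 14 arrays, and Cd34 between 9.63 and 11.45. Slamf1, which encodes the SLAM protein CD150, lay between 3.40 and 4.64, while the median value of an array was 5.03 to 5.12; no limit for signal above background was available, and the Sca-1 gene Ly6a was not among the named genes. Markers of endothelial cells differed between pairs far more than within them. The mean of 18 endothelial genes ran from 7.39 to 9.89 on the DMSO arrays and from 7.43 to 9.88 on the GSI arrays, lowest in pair 1 and highest in pair 6 in both groups. Cdh5, the adhesion protein of endothelial junctions, spanned 8.73 to 11.82, and the sinusoidal markers Lyve1 and Stab2 spanned 8.47 to 12.04 and 7.45 to 11.20. By mean level, Cdh5, Lyve1 and Stab2 lay above 98.6%, 98.7% and 95.5% of genes, and the albumin gene Alb above 93.8%. Kit and Cd34 lay above 97.2% and 98.8%, and Slamf1 above 24.5%.

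Pair 6 stood apart. Ptprc, the pan-leukocyte gene for CD45, was 6.98 and 6.67 on its DMSO and GSI arrays and between 8.68 and 9.93 on the other 12. Hlf, a stem cell transcription factor gene, was 5.31 and 5.92 there and between 7.88 and 8.91 elsewhere. The hepatocyte genes, such as those for albumin and fibrinogen, also differed between pairs, with means of 5.89 to 8.69 in DMSO and 6.08 to 8.46 in GSI. The samples are bulk RNA, so fewer cells of a type and less RNA per cell cannot be told apart. Labels also carry a code that puts pair 1 under L1, pairs 2 and 3 under L2 and pairs 4 to 7 under L3, and its meaning is not stated.

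**Figure D1:**
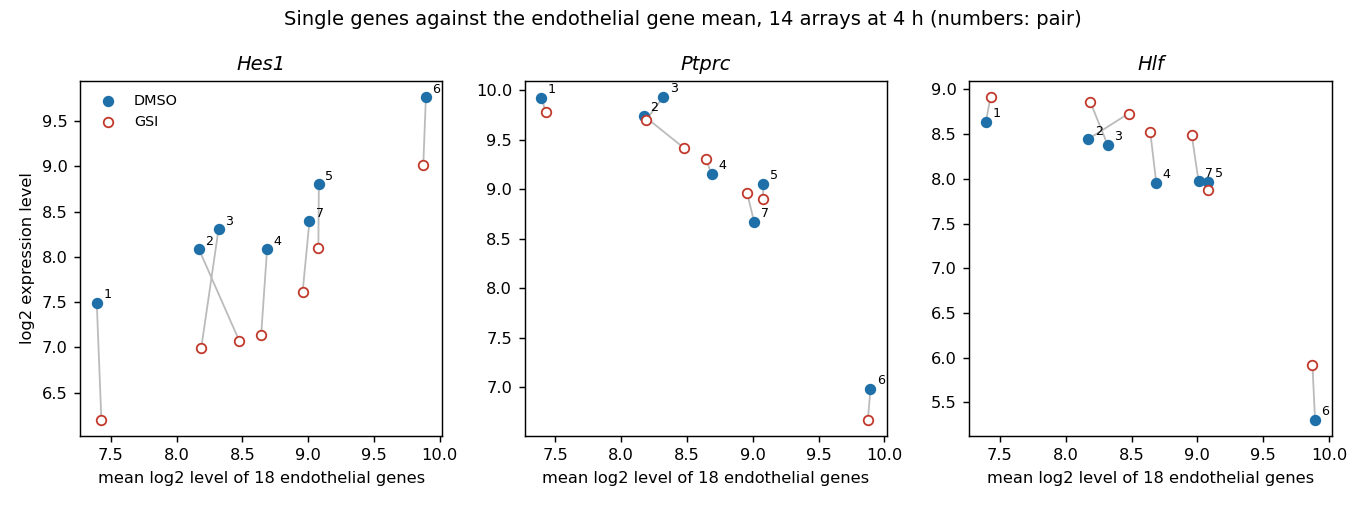
Log2 levels of Hes1, Ptprc and Hlf on the y axes against the mean log2 level of 18 endothelial genes on the x axes, 1 point per array at 4 h (filled for DMSO, open for GSI), with a line joining the arrays of a pair and the pair's number beside its DMSO array. Pair 6 lies at the far right in all panels, with Ptprc at 6.98 and 6.67 and Hlf at 5.31 and 5.92, and the Hes1 level of the GSI array was lower than that of its DMSO partner in 7 of 7 pairs.

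With GSI, 2 of 22180 genes fell and none rose (limma, adjusted p under 0.05; 0.00902% of genes called). Both were lower in 7 of 7 pairs. At an unadjusted p under 0.05 there were 803 genes with higher values (3.62%) and 550 with lower values (2.48%), 1353 in all (6.1%), where 1109 would be called by chance if no gene differed. Values were higher in every pair for 225 genes (1.01%) and lower in every pair for 179 (0.807%). The median change of all genes was 0.01, and 54.3% of genes had a positive one. No adjusted p of a rise was under 0.05, and the lowest, that of Il12a, was 0.162 with limma.

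Hes1 (Entrez 15205, chromosome 16) had the smallest p. In DMSO its level was 7.49 in pair 1, 8.08 in pair 2, 8.30 in pair 3, 8.08 in pair 4, 8.80 in pair 5, 9.76 in pair 6 and 8.39 in pair 7. With GSI it was 6.20, 7.07, 6.99, 7.13, 8.09, 9.01 and 7.61 in the same order. The groups overlapped: the DMSO array of pair 1 lay below the GSI arrays of pairs 5, 6 and 7. Within pairs the order never turned. Hes1 fell by 0.97 ± 0.0856 (SE, n = 7 pairs, limma adjusted p = 0.00139), from 8.42 ± 0.713 (SD, n = 7) to 7.44 ± 0.904 (SD, n = 7).

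The remaining Hes1 signal varied between pairs. It was 40.9% of the DMSO level in pair 1 and 40.3% in pair 3, 49.5% in pair 2, 51.7% in pair 4, and 58.2% to 61.3% in pairs 5, 6 and 7. The changes were -1.29, -1.01 and -1.31 in pairs 1 to 3 and -0.95, -0.71, -0.75 and -0.78 in pairs 4 to 7. Fitted within code L2, which holds 2 pairs, Hes1 fell by 1.16 (limma adjusted p = 0.00155), and within code L3 by 0.80 (limma adjusted p = 0.0422). With 2 pairs, the p-value within L2 rests largely on the spread that limma takes from all genes. The pairs of L1 and L2 were also those with the lowest endothelial means in DMSO, 7.39 to 8.32 against 8.69 to 9.89 in L3, so label code and endothelial level cannot be told apart, and their part in the size of the fall was not tested. Without pair 6 Hes1 fell by 1.01 (limma adjusted p = 0.00747), and without pair 1 by 0.92 (limma adjusted p = 0.00398).

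H2-Q10 (Entrez 15007, chromosome 17) was the other gene that fell. It encodes a class I histocompatibility molecule that the liver secretes. Its DMSO levels in pairs 1 to 7 were 8.22, 7.77, 6.73, 7.26, 7.17, 6.05 and 6.18, and its GSI levels 7.45, 6.66, 5.48, 6.61, 6.79, 5.27 and 5.30. Every GSI array lay below its partner, while the groups overlapped. The fall was 0.83 ± 0.0991 (SE, n = 7 pairs, limma adjusted p = 0.0196), and 42.2% of the DMSO level was left in pair 3 and 76.6% in pair 5.

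The H2-Q10 call was less firm than that of Hes1. With 1 pair left out it was kept only without pair 5 (limma adjusted p = 0.0103); without any of the other pairs the change was -0.77 to -0.86 and the limma adjusted p 0.0524 to 0.144, with 0.0524 without pair 1 and 0.0770 without pair 6. A second probe for the gene differed by -0.09 and was higher in 3 of 7 pairs. The gene belongs to a family of near-identical members, and signal from its relatives cannot be told apart here. For 20 other class I genes, looked at after the H2-Q10 value was seen, the changes ran from -0.27 to 0.25 with a median of 0.01, 11 were positive, and 0 were lower in every pair. The median change of 19 hepatocyte genes differed in sign from pair to pair: it was 0.33, 0.08, 0.39, -0.25, -0.25, 0.15 and -0.92 in pairs 1 to 7, positive in 4 of 7. The part of hepatocytes in the H2-Q10 values was not tested.

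**Figure D2:**
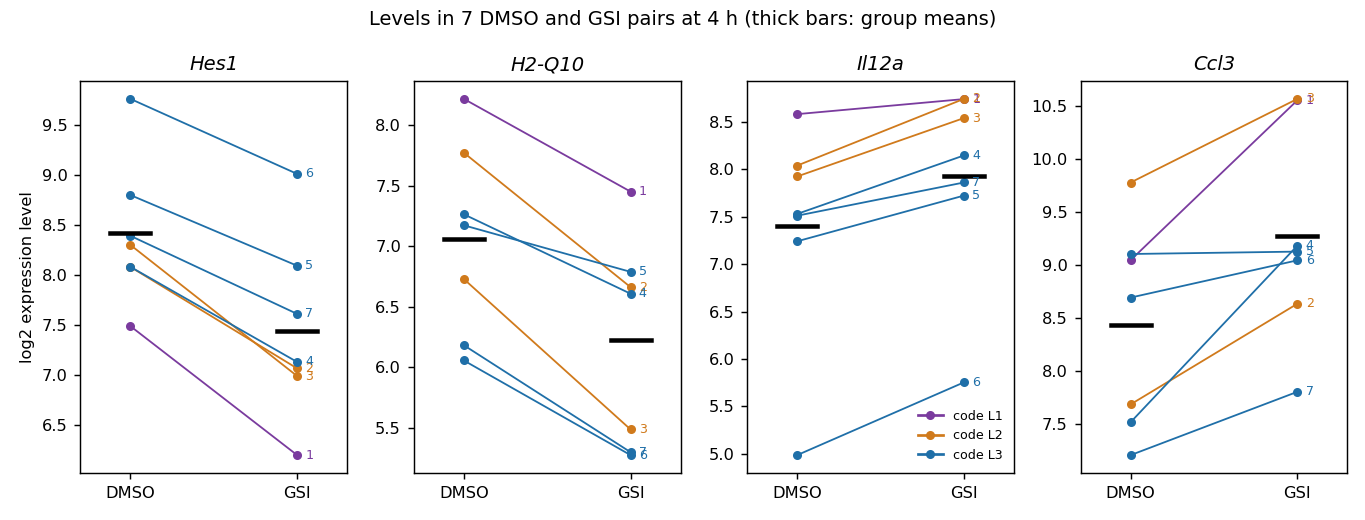
Log2 levels of Hes1, H2-Q10, Il12a and Ccl3 in DMSO and GSI, with 1 line per pair coloured by label code, the pair's number at its right end and thick bars for the means of 7 arrays. Every Hes1 and H2-Q10 line goes down and every Il12a and Ccl3 line goes up, the Ccl3 line of pair 5 by only 0.02; Hes1 and H2-Q10 passed the test across all genes, and Il12a and Ccl3 did not.

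Promoters were read for the motif GTGGGAA, the core that Rbpj binds, on both strands, because Notch acts through Rbpj. They are shown here for H2-Q10, which fell, for the Notch ligand gene Dll4, lower in every pair without passing, and for Hes5, a textbook Notch target. The 250 bases before each start, from RefSeq on GRCm38.p6, all on the plus strand, are printed 5′ to 3′ with matches in capitals. H2-Q10 is at chr17:35469839-35470088, Dll4 at chr2:119325534-119325783 and Hes5 at chr4:154960673-154960922.
H2-Q10: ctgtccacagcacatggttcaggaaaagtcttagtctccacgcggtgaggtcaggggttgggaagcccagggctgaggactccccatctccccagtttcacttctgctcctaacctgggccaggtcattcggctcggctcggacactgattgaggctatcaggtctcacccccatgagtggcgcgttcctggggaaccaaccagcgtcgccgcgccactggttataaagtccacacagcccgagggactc
Dll4: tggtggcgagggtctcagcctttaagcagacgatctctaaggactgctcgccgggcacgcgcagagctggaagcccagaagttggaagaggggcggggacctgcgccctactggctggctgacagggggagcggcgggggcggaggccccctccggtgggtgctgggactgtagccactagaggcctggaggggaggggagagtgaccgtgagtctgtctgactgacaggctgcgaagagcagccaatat
Hes5: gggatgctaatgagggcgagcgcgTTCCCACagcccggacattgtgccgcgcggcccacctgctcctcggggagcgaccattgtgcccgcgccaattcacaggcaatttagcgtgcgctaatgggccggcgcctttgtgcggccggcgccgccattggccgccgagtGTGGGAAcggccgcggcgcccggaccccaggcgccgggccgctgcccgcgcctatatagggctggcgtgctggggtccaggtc

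Hes5 held 2 matches, 1 on the minus strand at -226 to -220 and 1 on the plus strand at -83 to -77 from the start, and H2-Q10 and Dll4 held none. In windows of 300 bases, which add the 50 bases after the start, 6.38% of 32851 promoters held a match and 0.256% held 2 or more. Among measured genes with an entry the share was 7.09% (1204 of 16990). Of the 11 Notch genes named by a fixed rule that had an entry, 1 held a match (9.09%), which was Hes5. The targets Nrarp and Dtx1 held none. Hes1 had no promoter entry, so its promoter was not read. With 11 genes, these shares cannot tell whether the motif marks Notch genes. Of the 7 genes with an entry among those lower in every pair that are named below, 0 held a match, as did 0 of 8 among those higher; Hes1 is not among the 7. A match in these letters is a description and says nothing of binding. The Hes5 level was 4.68 to 5.92 in DMSO and 4.81 to 5.55 in GSI, with a change of -0.06 (higher in 3 of 7 pairs).

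No other Notch target passed. Of 16 measured target genes 1 was called, Hes1, and the list had a median change of -0.01 with 8 positive members, against 0.01 over all genes. Nrarp, a feedback inhibitor of the Notch complex, differed by -0.10 (higher in 2 of 7 pairs). Its levels were 5.55 to 7.23 (median 6.40) in DMSO and 5.99 to 7.01 (median 6.09) in GSI. Hey1 and Heyl, repressors related to Hes1, differed by -0.23 and -0.15, each higher in 2 of 7 pairs. Dtx1, an E3 ligase of the pathway, differed by 0.10, and Myc, a growth regulator, by 0.08 from a DMSO level of 10.11 to 10.60. Gata3, a T-lineage factor, and Ccnd1, which encodes cyclin D1, had unadjusted limma p-values under 0.05 with values on the higher side, 0.22 and 0.18. For genes of low signal a change could be missed, since no limit above background could be set.

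Among 24 genes for receptors, ligands and nuclear partners of Notch 0 were called and the median change was 0.03. Dll4, a ligand made by endothelium, had the smallest p. Its DMSO levels were 5.87 to 9.53 (median 7.67) and its GSI levels 5.79 to 9.08 (median 7.23), lower in 7 of 7 pairs with a change of -0.45 (limma adjusted p = 0.274). Its level ran with the endothelial markers, lowest in pair 1 and highest in pair 6 in both groups, and the endothelial mean differed by between -0.13 and 0.31 in any pair; the part of cell makeup in the Dll4 values was not tested. Pofut1, the enzyme that adds the fucose that Notch needs, was lower in every pair, with a change of -0.19 (limma adjusted p = 0.763). Notch1 differed by -0.03, Notch2 by 0.03, Notch3 (placed on the target list) by 0.11, Notch4 by -0.04, the ligand genes Dll1 and Jag1 by 0.05 and 0.09, and Rbpj by 0.05. Of 9 genes for gamma-secretase subunits and the ADAM proteases that cut before it, 0 were called, with changes of -0.08 (Ncstn) to 0.12 (Furin, a Notch-processing enzyme placed on that list).

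Beyond these, genes were named by the smallest p among those with the same sign in every pair, 12 in each direction. On the higher side none of the 12 passed. Il12a, which encodes the p35 chain of interleukin 12, was 4.99 to 8.58 (median 7.53) in DMSO and 5.75 to 8.74 (median 8.15) in GSI. It was higher in 7 of 7 pairs by 0.53 ± 0.0802 (SE), and pair 6 had the lowest level in both groups. Ccl3 and Ccl4, neighbouring chemokine genes, had the largest mean changes of the 12, 0.84 and 0.75 (limma adjusted p = 0.274 for each). The Ccl3 change was highest in pair 4 at 1.66 and lowest in pair 5 at 0.02, and the Ccl4 change was 1.35 in pair 1 and 0.03 in pair 5. With pairs 4 and 5, which share a letter in the labels, averaged into 1, Ccl4 rose by 0.76 and passed (limma adjusted p = 0.0398).

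The rest of the 12 covered transport, signalling and transcription. Nfil3, a basic leucine zipper repressor, was 6.28 to 6.88 in DMSO and 7.03 to 7.77 in GSI, without overlap of the groups. Such separation was found for 9 of 22180 genes (0.0406%), among them Rnf19b, an E3 ubiquitin ligase gene (7.08 to 7.93 in DMSO, 7.98 to 8.88 in GSI, change 0.74, limma adjusted p = 0.444). Kcnk5, a potassium channel, was higher by 0.60, Slc7a8, an amino acid transporter, by 0.47 and Slc15a3, a lysosomal peptide transporter, by 0.37. Hint3, Slain1, Twsg1, Tox and 1700092E19Rik were higher by 0.45, 0.43, 0.34, 0.36 and 0.32; Twsg1 encodes a BMP-binding protein and Tox a lymphoid nuclear factor. A second probe of Slain1, a microtubule-binding protein, differed by only 0.12.

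On the lower side Hes1 and H2-Q10 headed the 12 and the other 10 did not pass. Itgal, the alpha chain of the leukocyte integrin LFA-1, was 6.39 to 8.30 (median 6.92) in DMSO and 5.74 to 8.00 (median 6.604) in GSI, a change of -0.46. Efna1, an ephrin ligand, differed by -0.47, Rgs1, which dampens chemokine receptor signals, by -0.62, and Klrb1c, a natural killer cell receptor, by -0.42. Depp1, a gene controlled by FoxO factors, differed by -0.50 without overlap of the groups (5.33 to 5.87 in DMSO, 4.87 to 5.32 in GSI). Mir1962, Uckl1os, Nlrp4c and Gm10029 differed by -0.49, -0.40, -0.32 and -0.21. The limma adjusted p was 0.274 for each of these but Gm10029, where it was 0.301.

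**Figure D3:**
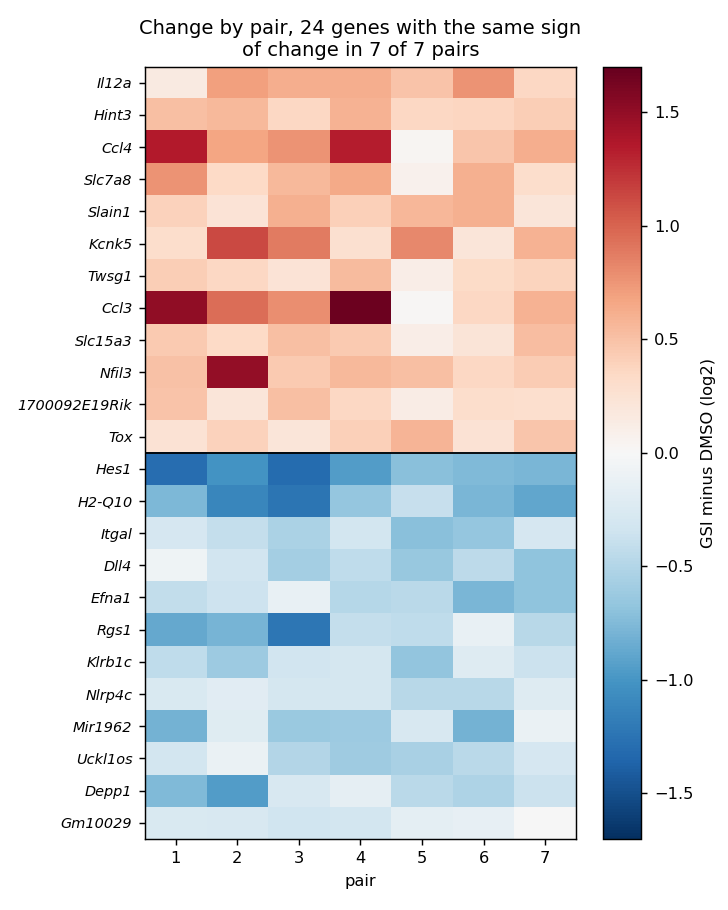
Change in each of 7 pairs (columns; GSI minus DMSO, log2, red higher and blue lower with GSI) for the 12 genes of smallest p on the higher side (above the line) and the 12 on the lower side (below it). Hes1 and H2-Q10 have the deepest blue over most pairs, pair 5 is near 0 for Ccl3 and Ccl4, and Nfil3 stands out in pair 2 at 1.49.

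Gene lists were read as counts and medians beside those of all genes, and none of their members other than Hes1 was called. In the list of NF-kB and inflammatory genes, 8 of 24 (33.3%) had higher values at an unadjusted limma p under 0.05, against 3.62% of all genes, and 0 had lower ones. The median change was 0.14. By pair the list's median lay between 0.02 and 0.31, while its mean was -0.02 in pair 7. Of the members 3 had negative changes, the largest that of Il1b, the gene of interleukin 1 beta, at -0.47 (higher in 2 of 7 pairs). In every pair 6 of 24 were higher, against 1.01% of all genes: Ccl3, Ccl4, Il12a, Tnip3 (0.61), Cxcl2 (0.25) and Nfkb2 (0.17). Ccl3, Ccl4 and Il12a had already been named above for the same sign in every pair. Tnip3 and Tnfaip3 (0.20), feedback inhibitors of NF-kB, and the chemokine gene Ccl2 (0.53) were among the 8. Macrophage markers had a median change of 0.10 (0.01 without pair 1), and their median in pair 1 was 0.65; their list mean ran from 6.43 to 7.49 in DMSO and from 6.34 to 7.47 in GSI. The NF-kB median was 0.09 without pair 1, and the part of macrophages in it was not tested.

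Immediate-early genes had positive changes in 21 of 23 cases, against 54.3% of all genes, with a median of 0.14. Nfil3, Cited2, a coactivator-binding factor, Jund, Jun and Atf3 had unadjusted limma p-values under 0.05 on the higher side and the phosphatase gene Dusp2 on the lower (-0.18). These were 5 of 23 (21.7%) higher, against 3.62% of all genes, and 1 (4.35%) lower, against 2.48%. Jund differed by 0.29 on the probe used and by only 0.05 on its second probe. Cited2 differed by 1.19 and 1.13 in the pairs of code L2, by 0.34 to 0.58 in pairs 1, 4, 5 and 7, and by -0.12 in pair 6. The median of the list was 0.21 within L2 and -0.01 within L3. Genes of amino acid and unfolded protein stress were positive in 26 of 28 cases, against 54.3% of all genes. Their median was 0.09, with 0.25 within L2 and 0.00060 within L3. At an unadjusted limma p under 0.05, 6 (21.4%) were higher, against 3.62% of all genes, and 0 were lower. Their largest changes at an unadjusted p under 0.05 were of Sdf2l1 (0.33) and Manf (0.20), both of the endoplasmic reticulum.

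Cholesterol synthesis and uptake genes were positive in 16 of 17 cases, against 54.3% of all genes, with a median of 0.15. On the higher side 5 (29.4%) had an unadjusted limma p under 0.05, against 3.62% of all genes: Lss (0.39), Msmo1 (0.31), Sqle (0.27), Fdps (0.23) and Mvd (0.18), enzymes from mevalonate to sterols. The list median was 0.40 in pair 3 and -0.03 in pair 6. Interferon response genes had 4 of 16 at that level (25.0%, against 3.62% of all genes), all higher, with Stat2 higher in 7 of 7 pairs by 0.20. Their median of 0.10 was 0.03 without pair 4, whose own value was 0.50, and it was below 0 in pairs 2, 3 and 7.

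Stem cell genes were positive in 23 of 30 cases, against 54.3% of all genes, with a median of 0.08. By pair the list's median lay between 0.01 and 0.14, while its mean was -0.01 in pair 1 and -0.02 in pair 6. Hlf, 5.31 to 8.64 (median 7.97) in DMSO and 5.92 to 8.91 (median 8.52) in GSI, was higher in 6 of 7 pairs by 0.38 (limma adjusted p = 0.392), and by 0.34 without pair 6. Hoxa9 (0.34), Gata2 (0.29, higher in 7 of 7 pairs), Hoxa7 (0.26) and Prdm16 (0.24), all transcription factors of stem cells, also had an unadjusted limma p under 0.05. So did Angpt1, a ligand of the Tek receptor, at -0.30 (-0.12 on its second probe). With Hlf, 5 of 30 (16.7%) were higher at that level, against 3.62% of all genes, and 1 (3.33%) was lower, against 2.48%. Of the markers of the sort, Kit differed by 0.07, Cd34 by 0.03, Ptprc by -0.10, Cd48 by -0.10, Cd27 by -0.02 and Slamf1 by 0.02. Flt3, a receptor of early multipotent progenitors, was higher by 0.40 in 6 of 7 pairs.

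Medians of several lineage lists moved with single pairs. All 15 measured erythroid genes had negative changes, where 54.3% of all genes had positive ones. Their median was -0.16, yet it was -0.75 in pair 4, 0.28 in pair 3 and -0.05 with pair 4 left out. It was 0.13 within code L2 and -0.47 within L3. All 16 megakaryocyte and platelet genes had positive changes (median 0.16), again with pair 4 highest at 0.72 and pairs 5 and 6 at -0.24 and -0.23; without pair 4 the median was 0.08. The neutrophil and monocyte median of 0.13 became -0.01 without pair 1, whose own value was 0.90, and the OP9 stromal median of 0.06 became -0.01 without pair 1 (0.79). The early T- and B-lineage list had a median of -0.03, and 6 of its 13 measured genes had positive changes. Il7r was at -0.25, Ebf1 at -0.26 and Cd3e at 0.15. At an unadjusted limma p under 0.05, 2 of the 13 (15.4%) were lower, against 2.48% of all genes, and 0 were higher. Signal was low, with 2 of the 13 above the median level of all genes.

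Proliferation lists had medians near that of all genes. DNA replication and mitosis lists had medians of -0.01 and -0.05. Rrm2, a ribonucleotide reductase subunit, differed by -0.26 (limma adjusted p = 0.670) and by -0.07 on its second probe. Of the mitosis genes, Nusap1, a spindle protein, differed by -0.14, lower in 7 of 7 pairs, and Cdc20 by 0.12. At an unadjusted limma p under 0.05, 2 of 24 mitosis genes (8.33%) were lower, against 2.48% of all genes. On the higher side there was 1 (4.17%), against 3.62%. In the p53 and apoptosis list Cdkn1a, the inhibitor p21, differed by 0.31, while the median was 0.02. Egln3, a hypoxia-regulated prolyl hydroxylase, was higher by 0.47 in a glycolysis and hypoxia list with a median of 0.02. JAK-STAT feedback genes were positive in 10 of 13 cases, against 54.3% of all genes (median 0.07). Pim1, a survival kinase gene, was at 0.33 (-0.01 on its second probe) and the feedback inhibitor Socs1 at 0.24. The JAK-STAT median was 0.14 without pair 4, 0.18 within L2 and 0.01 within L3. The endothelial and hepatocyte lists had medians of 0.01 and -0.05, mast cell and basophil genes -0.02, D cyclins with CDKs and their inhibitors 0.02, Myc and ribosome biogenesis genes 0.02, and cytokine receptors and integrins -0.02.

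**Figure D4:**
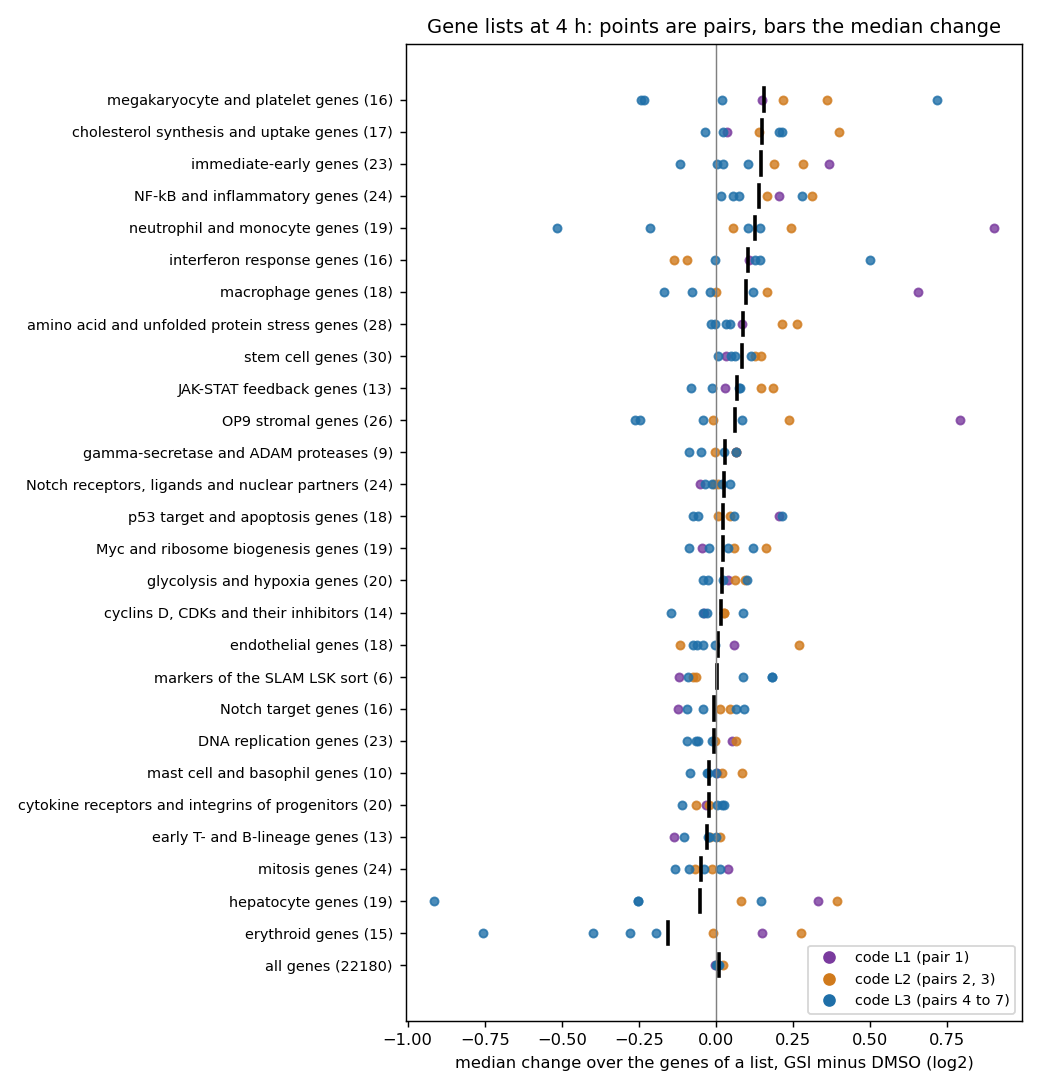
Median change (GSI minus DMSO, log2) over the genes of each list, with 1 point per pair coloured by label code, a bar for the median of the genes' mean changes and the number of measured genes in brackets. All genes sit at 0.01; by medians, NF-kB and stem cell genes have all 7 pairs above 0, while the erythroid list spans -0.75 to 0.28 and the neutrophil and monocyte list reaches 0.90 in pair 1.

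The 10 h arrays gave a choice of genes that used no 4 h change. Of the 100 genes with the smallest p there (limma on the 8 arrays of 10 h alone, 4 pairs), 71 had higher and 29 lower values with GSI at 10 h. At 4 h, 59 of the 71 were higher (83.1%, against 54.3% of all genes), with a median change of 0.10, and 20 were so at an unadjusted limma p under 0.05 against 1 lower, where 3.62% of all genes were higher at that level. Of the 29, 20 were lower at 4 h with a median change of -0.11, beside 10139 of all 22180 genes. At the same level 7 were lower and 0 higher, where 2.48% of all genes were lower. The medians at 4 h by pair were 0.05, 0.22, 0.23, 0.27, 0.07, -0.04 and 0.15 for the 71 and below 0 in every pair for the 29. Pair 6 was the exception for the first set.

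**Figure D5:**
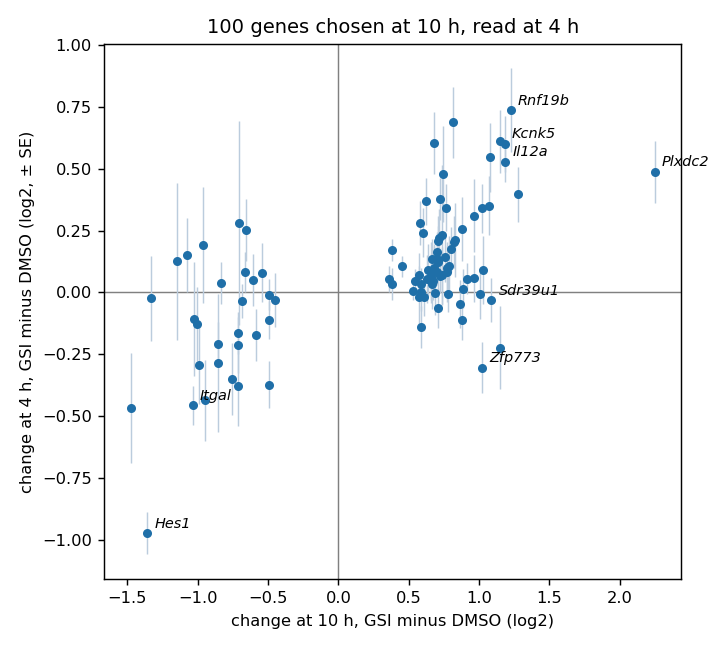
Change at 4 h (y axis, ± SE, n = 7 pairs) against change at 10 h (x axis, n = 4 pairs) for 100 genes chosen at 10 h; both are GSI minus DMSO on the log2 scale. Hes1 is lowest at 4 h, 59 of the 71 genes on the right lie above 0, and Plxdc2 at the far right stands at 0.49 on the y axis.

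A test of the difference between both times, in a fit to all 22 arrays, called 4 genes (0.018% of 22180, limma adjusted p = 0.0306 for each), and 2075 genes had an unadjusted p under 0.05. Plxdc2, the gene of a plexin-domain membrane protein, went from 5.95 to 6.44 at 4 h and from 5.41 to 7.65 at 10 h. Its change was 0.49 at 4 h (higher in 6 of 7 pairs) and 2.25 at 10 h. Zfp773, a zinc finger gene, was lower in 7 of 7 pairs at 4 h (-0.30) and higher in 4 of 4 at 10 h (1.02). Sdr39u1 differed by -0.03 and 1.09, and Adgrl4, an adhesion receptor of endothelium, by 0.12 and 0.71. Hes1 differed by -0.97 at 4 h and -1.36 at 10 h, and the difference did not pass (limma adjusted p = 0.452). No label code holds both times, so time and code cannot be told apart. The sources used here do not say if 4 h and 10 h arrays went through RMA as 1 set.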

How the data were processed

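The authors deposited log2 expression values of 41345 probes per array, for which the submitters' processing notes name RMA and Partek 6.6; the array's genome build is not given in the sources used here. RMA corrects background and equalises distributions between arrays, and what this does to genes of low signal was not tested. Of the probes, 23521 had 1 gene symbol, and for 1082 genes with several probes the brightest on average over the 22 arrays was kept, which left 22180 genes with no filter on signal. Array medians were 5.03 to 5.12 at 4 h. Precision is limited by how many arrays there are.

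The 14 arrays of 4 h were fitted with limma 3.58.1 in R 4.3.3 (lmFit, eBayes with an intensity trend), with the pair as a fixed block, 2-sided, and Benjamini-Hochberg adjustment over 22180 genes at 0.05. The pairing comes from the series' design text. As a check, deviations of DMSO and GSI partners from their group means correlated at 0.223 to 0.872 and 6 of 7 DMSO arrays matched their own partner best, pair 4 being the exception. Genes were named by fixed rules: those called; the 12 of smallest p with the same sign in all 7 pairs, per direction; 15 Notch genes; up to 4 of smallest p per list; and 10 genes of smallest p at 10 h, among them 5 per direction. The promoters of Dll4 and Hes5, class I genes, and single genes given for a list beyond those 4, were added after values were seen. The 27 gene lists, the rules and the comparison itself were chosen with earlier results of these data known. Alternatives covered the pair block, each pair left out, normalization, probe choice, low-signal genes, variance model, array weights, all 22 arrays and label codes.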

Additional observations from a re-analysis of the deposited data

Results flagged for a closer look

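Changes by pair were examined for outlying values in 64 groups of 7 (37 genes and 27 list medians), and 2 groups held one, where chance gives about 1 in 20. The Nfil3 change in pair 2 was 1.49, apart from the other 6 pairs, which lay between 0.35 and 0.56. The median change of macrophage genes in pair 1 was 0.65, and the other pairs lay between -0.17 and 0.16.

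The change at 10 h minus that at 4 h passed limma's test of the difference itself for 4 genes. It was 1.76 ± 0.242 (SE) for Plxdc2, 1.32 ± 0.189 for Zfp773, 1.12 ± 0.165 for Sdr39u1 and 0.59 ± 0.0876 for Adgrl4, with positive changes in 4 of 4 pairs at 10 h for each. Zfp773 alone of these had a negative change in all 7 pairs at 4 h.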

How the results depend on the processing

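The number of genes called at 4 h (2 as reported) was 0 with no replicate block (limma; 492 at an unadjusted p under 0.05), 1 in the fit to all 22 arrays, 148 within label code L2 (2 pairs; 90 higher), 1 within L3, and 1 to 2 with a pair left out. It stayed 2 without pair 5 and was 1 without pair 1, 2, 3, 4, 6 or 7. Hes1 (-0.97) lost its call only with no replicate block (limma adjusted p = 0.99995), and leaving out pairs gave -1.02 to -0.92 with adjusted p from 0.0036 to 0.0150. H2-Q10 also lost its call in the fit to all 22 arrays (limma adjusted p = 0.317), within L3 (-0.68, adjusted p = 0.439) and with no block. Averaging pairs 4 and 5 gave 3 calls. The difference between both times had 0 calls with no replicate block (814 at an unadjusted p under 0.05). The 4 h median of genes lower at 10 h was -0.25 with 50 genes chosen, -0.11 with 100 and -0.05 with 200. The cause of these shifts was not tested. Fits within codes have fewer arrays. With 2 pairs, p-values within L2 rest largely on the spread that limma takes from all genes, so calls there say little of agreement between pairs. The 22 genes named for the same sign in every pair that did not pass kept it in every alternative computed for them (19 or 20). That choice by sign largely fixed this outcome, so it is no support. Of these 22, 6 passed in some alternative, all 6 within L2. Other named genes changed sign in some, such as Hes5 in 3 of 19 and Dll1 in 3 of 20. Further named genes, such as Cited2 and Cdkn1a, also passed within L2. Of 27 list medians 9 kept their sign in all 20.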
